A study of Mus musculus with 23 samples.

Results

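The miR-34 family was followed in small RNA libraries of mouse retina. Its members were chosen by row name, as the mature rows mir-34a, mir-34b and mir-34c, and no measured value entered that rule. All 3 were listed among 903 mature rows. The 23 libraries came from retinas taken at post-natal day 90, each from 1 eye. Titles that differ only in R or L were read as the right and left eye of 1 animal, which gave 15 animals. This reading is an inference.

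The groups, other than the wild type, were P23H+/- KI mice, which carry 1 rhodopsin allele with the P23H protein change, a model of inherited photoreceptor loss. Mouse gRhO (11 libraries, 7 animals) received DNA nanoparticles with the genomic form of mouse rhodopsin, and Human gRHO (3 libraries, 2 animals) received the human gene in that form. Saline (2 libraries, 1 animal) is the injected control, and un-injected (5 libraries, 3 animals) had no treatment. The wild type (WT, 2 libraries, counted as 2 animals) is untreated C57B. The leading numbers in the titles recur in no other group, and the WT titles carry none. Treatment and whatever those numbers mark thus cannot be told apart.

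miR-34 miRNAs are direct transcriptional targets of the tumour suppressor p53 and repress genes of the cell cycle and of survival, such as cyclin-dependent kinases and Bcl2. In mouse, miR-34a is known from many tissues, including brain, and rises with age and cell stress. miR-34b and miR-34c come from 1 shared primary transcript and are known for airway epithelium and testis. miR-449 miRNAs carry the same seed, the stretch that pairs with targets, and are a hallmark of multiciliated epithelium.

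The mature sequences from RefSeq (GRCm38.p6) are shown because a deposited row names a locus without its arm and may count the 5p or the 3p product. Capitals mark the seed, bases 2 to 8.
miR-34a-5p: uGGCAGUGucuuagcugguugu
miR-34a-3p: aAUCAGCAaguauacugcccu
miR-34b-5p: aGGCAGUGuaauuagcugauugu
miR-34b-3p: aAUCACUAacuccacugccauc
miR-34c-3p: aAUCACUAaccacacagccagg
miR-449a-5p: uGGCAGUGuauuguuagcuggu
miR-449c-5p: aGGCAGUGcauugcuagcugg

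miR-34c-5p and miR-449b-5p were not used here, and the counts that follow cover neither. The 5p seed GGCAGUG belonged to 4 of the 1679 mature mouse miRNAs compared, namely miR-34a-5p, miR-34b-5p, miR-449a-5p and miR-449c-5p. The 3p seed of miR-34b and miR-34c, AUCACUA, belonged to these 2 alone, and the 3p seed of miR-34a to miR-34a-3p alone. Compared base by base from the 5′ end, miR-34b-3p and miR-34c-3p were identical at 17 of 22 positions.

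The hairpin of miR-34a lies on chromosome 4, from 150068454 to 150068555 on the plus strand. It is printed with both mature arms in capitals, 5p first, since 1 locus row could hold reads of either.
Mir34a hairpin: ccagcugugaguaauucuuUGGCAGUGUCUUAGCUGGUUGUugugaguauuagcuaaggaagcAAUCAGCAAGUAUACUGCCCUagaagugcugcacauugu
GENCODE M21 annotates it as a gene of its own whose last 17 bases overlap an exon of Gm37795, a transcript still to be experimentally checked, on the same strand. The hairpins of miR-34c (51103034 to 51103110) and miR-34b (51103562 to 51103645) lie on the minus strand of chromosome 9, with 451 bases between them. Both sit in an intron of Btg4, which runs on the opposite strand.

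Libraries held from 5968388 to 16048954 reads of mature miRNA, and these reads are the total to which every level below, in CPM (reads of a row scaled to a common library size), was set. Summed CPM of the 3 photoreceptor rows (mir-183, mir-182 and mir-96) reached 1101 and were above 0 everywhere. They were lowest in the right eye of mouse gRhO animal 1, at 52.9, and in un-injected animal 2, at 198. Ribosomal RNA (rRNA) made up 3.00% to 6.20% of aligned reads in 6 libraries and 0.201% to 0.878% in the other 17. Of the 6 rRNA-rich libraries, 3 were un-injected (both eyes of animal 3, and animal 2) and 3 were mouse gRhO (left eye of animal 2, right eye of animal 3, and animal 6). No Human gRHO, saline or WT library was among them. These libraries were made from whole retina, in which fewer cells of a type and less of an RNA per cell cannot be told apart.

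The mir-34a row stood on a pair of levels that did not follow the groups. It held 1854 reads in the right eye of mouse gRhO animal 2, 2167 in the left eye of Human gRHO animal 1 and 1649 in WT animal 2. In the other 20 libraries it held 1 to 10 reads, with a median of 2.5. The gap between the levels was 6.10 on the log2(CPM + 0.5) scale. The high libraries were thus 1 of 11 with mouse gRhO, 1 of 3 with Human gRHO, 0 of 2 with saline, 0 of 5 in un-injected and 1 of 2 in WT retinas.

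**Figure D1:**
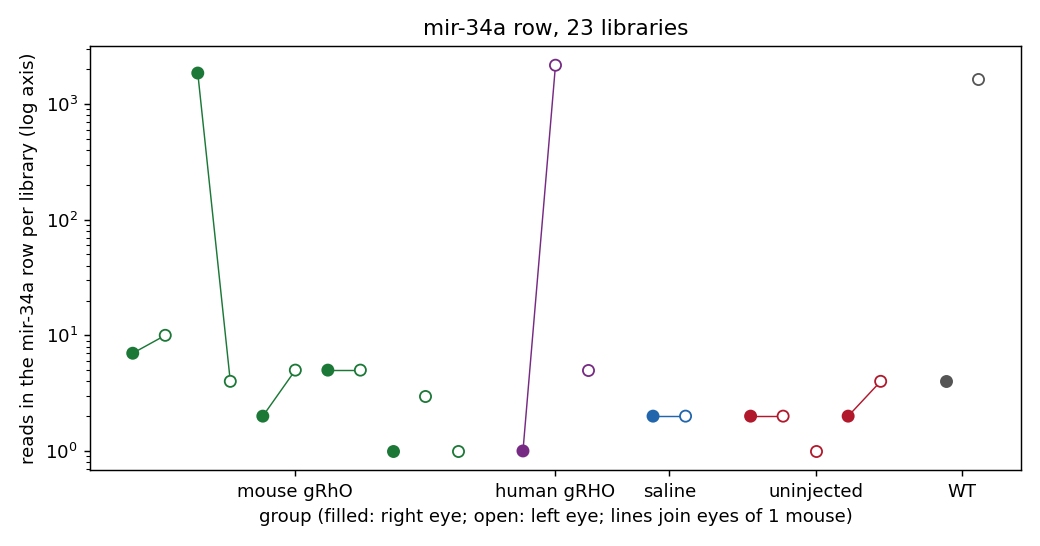
Reads in the mir-34a row (log axis) for each of 23 libraries by group; filled points are right eyes, open points left eyes, and lines join the eyes of 1 animal. Libraries at 1649, 1854 and 2167 reads stand apart from the other 20, which hold 1 to 10, and 2 lines run between the levels.

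The levels also parted within animals. Mouse gRhO animal 2 had 1854 reads (131 CPM) in the right eye and 4 reads (0.67 CPM) in the left. Human gRHO animal 1 had 1 read (0.089 CPM) in the right eye and 2167 reads (195 CPM) in the left. In the other 6 animals with both eyes, each eye held 10 reads or fewer. A row was called two-level, without regard to group, when it reached 30 reads in a library and its sorted values parted by a gap of 3.5 or more on that scale, or by 2 or more where both sides held 2 or more libraries.

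The same rule caught 65 of the 337 rows that reached 30 reads, so the behaviour was not particular to mir-34a. None of the other 64 such rows was high in exactly the same libraries: 17 were high in all 3 of them, 18 in 2, 15 in 1 and 14 in none. Of the 65 rows, 55 put the eyes of at least 1 animal on different levels. WT animal 2, one of the libraries high for mir-34a, was high for 47 of the 65, the most of any library. The right eye of mouse gRhO animal 2 was high for 34 and the left eye of Human gRHO animal 1 for 24, within the range of 21 to 47 over all libraries.

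The stemloop row of mir-34a showed no such jump. It held 6 reads over the 3 high libraries and 31 over the 20 low ones, which is 0.145 and 0.158 CPM. The precursor row held 3 reads over the high libraries and 7 over the low ones, or 0.073 and 0.036 CPM. Because a mean across the levels would describe neither, mir-34a was left out of the fit across rows, and no fold change between groups is given for it.

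Within the low level, reads were too few to order the libraries firmly. Mouse gRhO libraries ran from 0.10 to 1.01 CPM, with the highest values in both eyes of animal 1 (10 reads left, 7 right). The low Human gRHO libraries stood at 0.089 and 0.50 CPM, saline at 0.18 and 0.19, un-injected between 0.14 and 0.51, and the low WT library at 0.41. The exact 95% binomial interval of the highest of these, 0.48 to 1.85 CPM, overlapped that of the low WT library, 0.11 to 1.06 CPM. Such intervals cover counting error only.

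mir-34b was a low row without jumps, with 3 to 32 reads per library. Over both eyes, mouse gRhO animals ran from 0.47 to 1.59 CPM with a median of 1.07. Human gRHO animals stood at 1.57 and 0.71 CPM, and the saline animal at 1.02. Un-injected animals stood at 1.64, 3.87 and 2.59 CPM, and WT animals at 0.62 and 0.19.

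All 3 un-injected animals thus lay above the other 12, which 6 of 382 tested rows did (1.57%). The margin was narrow at its edge. Un-injected animal 1, with 41 reads, had a 95% interval of 1.17 to 2.22 CPM, and mouse gRhO animal 2, with 32 reads, one of 1.09 to 2.25 CPM. The eyes of that un-injected animal differed as well, with 2.50 CPM right (32 reads, interval 1.71 to 3.53) and 0.73 CPM left (9 reads, interval 0.34 to 1.39). Single un-injected libraries therefore overlapped those of the other groups. The libraries of un-injected animals 2 and 3 were all rich in rRNA. That of animal 2 was also poor in photoreceptor and neuron rows. The part of these in the result was not tested.

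**Figure D2:**
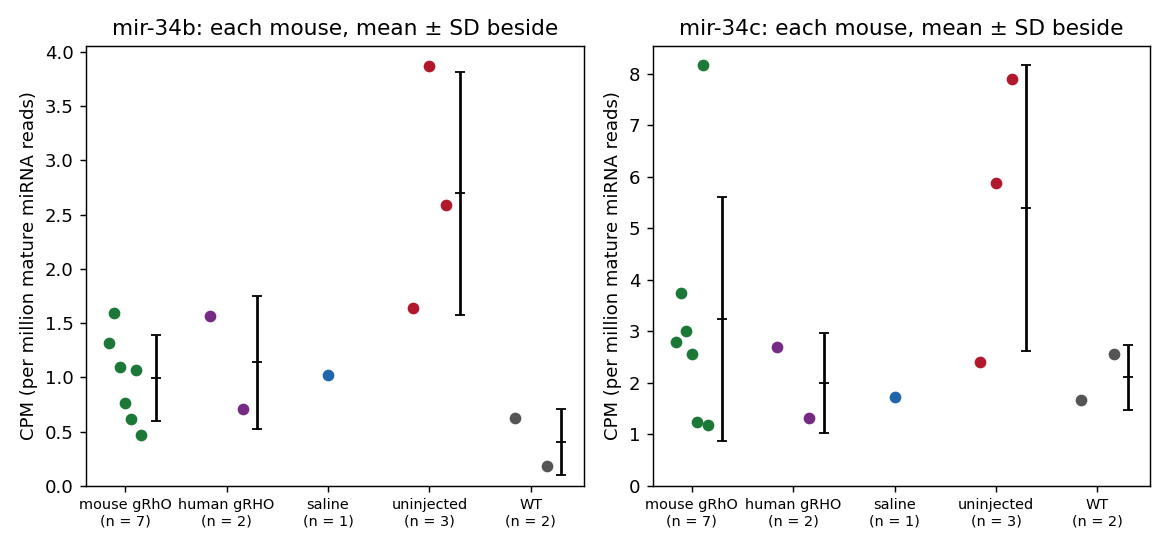
CPM of mir-34b (left) and mir-34c (right) in each of 15 animals by group, with the group mean ± SD drawn beside groups of 2 or more. For mir-34b all 3 un-injected animals (1.64 to 3.87 CPM) lie above the other 12, and for mir-34c the groups overlap.

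mir-34c held 7 to 64 reads per library. Mouse gRhO animals ran from 1.18 to 8.17 CPM with a median of 2.78. Human gRHO animals stood at 2.69 and 1.31 CPM, and the saline animal at 1.72. Un-injected animals stood at 2.40, 5.87 and 7.89 CPM, and WT animals at 1.66 and 2.55.

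The groups overlapped for mir-34c. Un-injected animals 2 and 3 were high, un-injected animal 1 lay among the treated animals and below WT animal 2, and the highest of all was mouse gRhO animal 6. These 3 high animals are those whose libraries were all rich in rRNA.

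The level of mir-34c differed between rRNA-rich and other libraries, which also differed in depth. The rRNA-rich libraries held 5968388 to 9256439 reads of mature miRNA, and the others 8500222 to 16048954. CPM of mir-34c ran from 3.997 to 8.44 in the 6 rRNA-rich libraries (median 7.28). In the other 17 they ran from 0.68 to 4.38 (median 2.21). Only 1 of the 17 reached the lowest rRNA-rich value, the right eye of mouse gRhO animal 1. That library is the poorest in photoreceptor and in neuron rows. The difference of medians on the log2(CPM + 0.5) scale was 1.52, the 7th highest of 382 rows, whose median difference was 0.06 (5th to 95th percentile -0.40 to 0.72).

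The same order held within the 2 animals that had 1 rRNA-rich eye. In mouse gRhO animal 2, mir-34c stood at 7.20 CPM in the left eye (6.20% rRNA) and 2.27 CPM in the right (0.32%). In mouse gRhO animal 3 it stood at 3.997 CPM in the right eye (3.08%) and 2.21 CPM in the left (0.47%). For mir-34b the corresponding values were 2.35 and 1.27 CPM in animal 2, and 1.51 and 0.77 CPM in animal 3. Gaps in mir-34c of like size also arose where neither eye was rRNA-rich. The saline animal had 2.68 CPM right (0.24% rRNA) and 0.68 CPM left (0.35%), the opposite order. Mouse gRhO animal 1 had 4.38 CPM right (0.88%) and 1.21 CPM left (0.36%). The remaining animals with both eyes differed less.

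Across libraries mir-34b followed less closely, with 1.07 to 3.87 CPM in the rRNA-rich libraries and 0.19 to 2.50 CPM in the others. Its difference of medians was 0.83 on the same scale, the 18th highest of 382. What links these rows to the rRNA share or to depth was not tested.

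**Figure D3:**
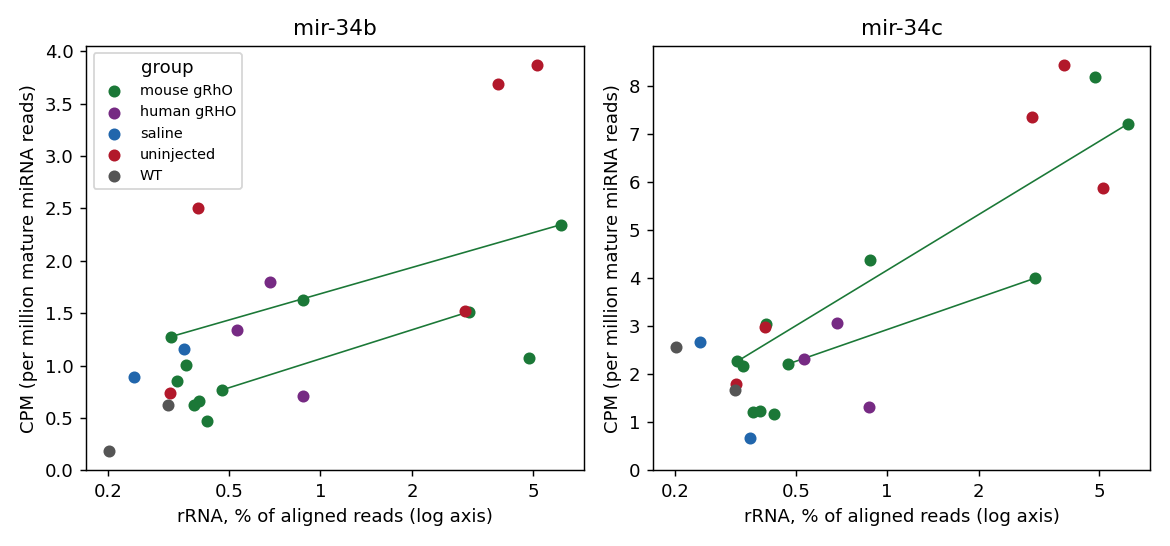
CPM of mir-34b (left) and mir-34c (right) against the rRNA share of aligned reads (log axis) in 23 libraries, coloured by group; lines join the eyes of 2 mouse gRhO animals of which 1 eye was rRNA-rich. For mir-34c the 6 libraries at 3.00% rRNA or more lie between 3.997 and 8.44 CPM, and 16 of the other 17 lie below them.

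The comparison of un-injected P23H+/- with WT retinas asked what differs with the mutation. mir-34b averaged 2.70 ± 1.12 CPM in un-injected animals and 0.40 ± 0.31 CPM in WT animals (SD, n = 3 and 2). Its CPM did not overlap, as in 22.5% of rows with un-injected higher. With the TMM size factors of the test applied, mir-34b again had no overlap, as had 50 of 382 rows. The log2 fold change was 2.35 (SE 0.70, 95% interval 0.89 to 3.82), with an adjusted p of 0.120 (edgeR quasi-likelihood test, Benjamini-Hochberg over 382 rows), so it did not pass the threshold of 0.05. The WT side rested on 6 and 3 reads. Summed CPM of marker rows parted in this comparison for only some cell types. Ranges overlapped for photoreceptor, neuron, surface epithelium, multiciliated epithelium, red blood cell and leukocyte rows. Photoreceptor rows, for example, ran from 198 to 805 in un-injected and from 306 to 1101 in WT libraries. Summed CPM of the 2 rows listed for pigment epithelium and glia (mir-204 and mir-211) ran from 115 to 298 in un-injected libraries and from 53.7 to 99.6 in WT libraries. Those of the 5 muscle rows, 3 of them two-level, ran from 860 to 39447 in un-injected libraries and from 46146 to 92779 in WT libraries. Their part in the result was not tested.

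The mir-34b call for un-injected against WT depended on the tool and on the animals kept. DESeq2 called mir-34b higher in un-injected retinas (log2 2.44, adjusted p = 0.0434), among 11 of 382 rows (2.88%), where edgeR called 6 rows (1.57%). Without WT animal 1, edgeR called it too (log2 3.26, adjusted p = 0.0310), when 15.7% of all rows were called. Without WT animal 2 it stood at 1.92 (adjusted p = 0.685), and without the rRNA-rich libraries, which leaves 1 un-injected animal, at 1.78 (SE 0.87, adjusted p = 0.677). Without the 2 libraries poor in photoreceptor rows it stood at 2.05 (adjusted p = 0.244). With only the 2 groups in the edgeR fit it stood at 2.45 (adjusted p = 0.352). With rRNA share in the edgeR model, a setting chosen after seeing the data, it stood at 1.69 (adjusted p = 0.376).

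mir-34c averaged 5.39 ± 2.78 CPM in un-injected animals and 2.11 ± 0.63 CPM in WT animals (SD, n = 3 and 2). The log2 fold change was 0.79 (SE 0.68, 95% interval -0.64 to 2.22, adjusted p = 0.565 with edgeR). Its sign turned without the rRNA-rich libraries, which leaves 1 un-injected animal, to -0.21 (SE 0.70). Neither row passed with edgeR, 0 of 2.

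Treatment with either construct was compared with no injection. mir-34b averaged 0.99 ± 0.40 CPM with mouse gRhO and 2.70 ± 1.12 CPM in un-injected animals (SD, n = 7 and 3), and every treated animal lay below every un-injected one, as did 2.62% of rows. The log2 fold change was -1.19 (SE 0.44, 95% interval -2.11 to -0.27), and the adjusted p with edgeR was 0.745. Its p-value was the 6th smallest of 382, of which 18 had an unadjusted p under 0.05 and 0% passed with edgeR or DESeq2. Without the rRNA-rich libraries, which leaves only un-injected animal 1 as control, the change was -0.79 (SE 0.70).

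mir-34c averaged 3.24 ± 2.37 CPM with mouse gRhO and 5.39 ± 2.78 CPM in un-injected animals, and its log2 fold change was -0.52, with SE 0.49 and an adjusted p of 0.974 (edgeR). It was -0.97 without mouse gRhO animal 6 (adjusted p = 0.735), -0.93 without un-injected animal 1 (adjusted p = 0.754) and -0.19 without un-injected animal 3 (adjusted p = 0.978). Without the rRNA-rich libraries, which leaves only un-injected animal 1 as control, it was -0.12. The comparisons with un-injected retinas share the same 3 control animals, so that their like signs are not separate evidence.

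With Human gRHO, mir-34b averaged 1.14 ± 0.61 CPM and mir-34c 2.00 ± 0.97 CPM (SD, n = 2), against 2.70 ± 1.12 and 5.39 ± 2.78 CPM in un-injected animals. The log2 fold changes were -0.98 (SE 0.61) and -1.16 (SE 0.68), both with an adjusted p of 0.930 (edgeR). In the saline animal, set against un-injected animals, they were -1.05 (SE 0.79) and -1.29 (SE 0.90), both with an adjusted p of 0.910. That animal is assumed to vary like the others. Summed CPM of the 4 leukocyte rows, 2 of them two-level, ran from 21.9 to 31.3 in its libraries and from 194 to 670 in un-injected ones. Those of the 6 neuron rows ran from 10472 to 13478 and from 4574 to 10438. The other marker lists overlapped between saline and un-injected libraries. The part of these in the result was not tested. Without the rRNA-rich libraries the changes were -0.45 and -0.20 with Human gRHO, and -0.52 and -0.32 with saline. That setting leaves un-injected animal 1 as the only control, the lowest of its group for both rows. The mir-34b change with Human gRHO was -1.68 without Human gRHO animal 1, and that of mir-34c was -1.78. Neither row passed in either comparison with edgeR or DESeq2, and edgeR passed 0% of all rows. With Human gRHO 10 rows had an unadjusted p under 0.05, and with saline 13.

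The constructs were also set against each other. mir-34b averaged 1.14 ± 0.61 CPM with Human gRHO and 0.99 ± 0.40 CPM with mouse gRhO (SD, n = 2 and 7), a log2 fold change of 0.21 (95% interval -0.90 to 1.32). mir-34c averaged 2.00 ± 0.97 CPM with Human gRHO and 3.24 ± 2.37 CPM with mouse gRhO, a change of -0.65 (95% interval -1.92 to 0.63). Both had an adjusted p of 0.997 (edgeR), with 0% of rows called, also by DESeq2, and 11 at an unadjusted p under 0.05. Intervals this wide leave room for a difference either way.

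Both treatments had WT as a further reference. mir-34b differed by 1.16 with mouse gRhO (log2, SE 0.63, adjusted p = 0.333) and by 1.38 with Human gRHO (SE 0.73, adjusted p = 0.564), and neither passed with edgeR. The mir-34b values were 2.01 and 2.19 without WT animal 1, 0.67 and 0.82 without WT animal 2, and with Human gRHO 0.73 without Human gRHO animal 1. mir-34c differed by 0.27 with mouse gRhO (SE 0.60, adjusted p = 0.817) and by -0.37 with Human gRHO (SE 0.74, adjusted p = 0.871). With mouse gRhO edgeR called 3.14% of all rows and DESeq2 17 rows. With Human gRHO edgeR called 0%, with 38 rows at an unadjusted p under 0.05, and DESeq2 called 5 rows, neither member among them. With mouse gRhO the mir-34c value turned to -0.33 without the rRNA-rich libraries, -0.075 without mouse gRhO animal 6 and -0.058 without WT animal 1. It was 0.93 without WT animal 2. With Human gRHO it was 0.22 without WT animal 2 and 0.021 without Human gRHO animal 2.

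**Figure D4:**
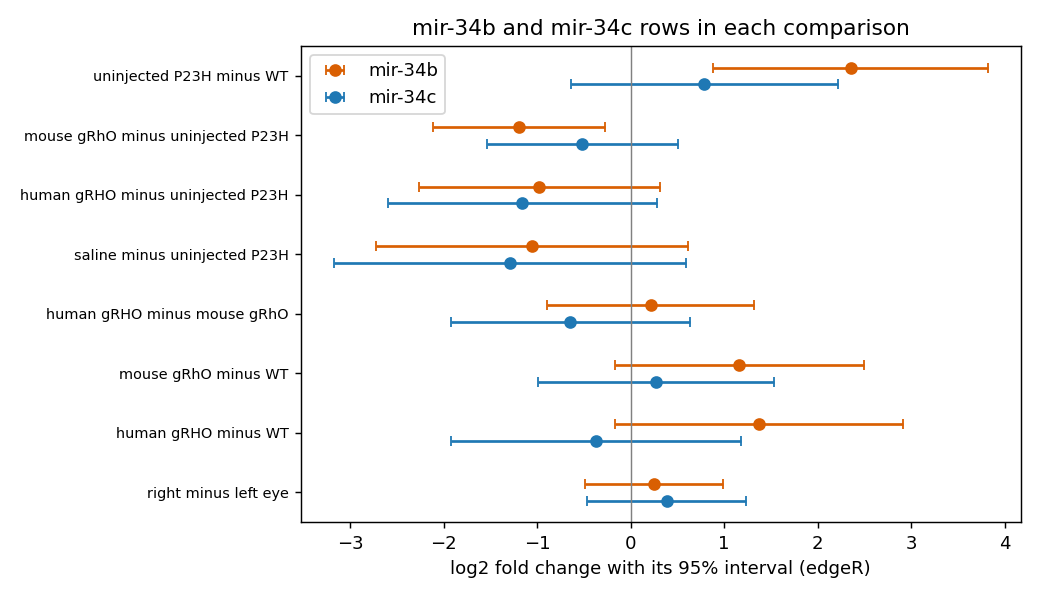
Log2 fold changes of the mir-34b and mir-34c rows with their 95% intervals (edgeR) in 7 comparisons between groups and between right and left eyes; the grey line marks no difference. The intervals of mir-34b exclude 0 for un-injected against WT (0.89 to 3.82) and mouse gRhO against un-injected (-2.11 to -0.27), and neither passed after adjustment over 382 rows.

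Right and left eyes were compared within the 8 animals that had both. mir-34b was higher in the right eye in 4 of 8 animals and mir-34c in 6 of 8. The log2 fold changes, right minus left, were 0.25 (SE 0.34) and 0.38 (SE 0.38), both with an adjusted p of 0.952 over 330 rows (edgeR with a term for the animal). Without un-injected animal 1 the mir-34b value was 0.0077. The mir-34c value ran from 0.19 to 0.64 as 1 animal at a time was left out, lowest without the saline animal and highest without mouse gRhO animal 2. By either tool 0% of the 330 rows passed, and with edgeR 9 stood at an unadjusted p under 0.05. For mir-34c the pairs ranged from 4.38 CPM right and 1.21 CPM left in mouse gRhO animal 1 to 2.27 CPM right and 7.20 CPM left in mouse gRhO animal 2. The differences between eyes ran from -1.48 to 1.51 on the log2(CPM + 0.5) scale. The lowest was that of mouse gRhO animal 2, whose left eye alone was rRNA-rich. The log2 fold changes of mir-34c between groups ran from -1.29 to 0.79. These are fitted over animals with TMM factors, so their range is not directly comparable with that of single pairs.

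mir-34b and mir-34c, which share a primary transcript, were correlated over the 15 animals on the log2(CPM + 0.5) scale (Pearson r = 0.66, permutation p = 0.00962, adjusted p = 0.0289 over 3 relations; Spearman rho = 0.71, permutation p = 0.00368, adjusted p = 0.0110). Without the 2 animals farthest from the median of mir-34b, r was 0.72. Without the rRNA-rich libraries (12 animals) r was 0.41 (permutation p = 0.189, adjusted p = 0.524) and rho was 0.61 (permutation p = 0.0403, adjusted p = 0.121). In those 12 animals neither passed after adjustment, and r was 0.78 without the 2 farthest. The points share library depth. All 5 groups were pooled, so differences between groups can enter the correlation as well. For each member at least 5 other rows had a higher r, as listed below.

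The seed relative mir-449a held 2 to 26 reads per library and mir-449c 11 reads in all, while mir-449b was not listed. mir-449a averaged 1.01 ± 0.60 CPM with mouse gRhO, 0.86 ± 0.50 CPM with Human gRHO, 1.39 CPM in the saline animal, 1.54 ± 1.12 CPM in un-injected animals and 1.72 ± 0.50 CPM in WT animals (SD, n = 7, 2, 1, 3 and 2). It had no fold change past the threshold with edgeR in any of the 7 comparisons between groups, where its changes ran from -1.19 to 0.09 (log2). Its correlation over the 15 animals was r = -0.04 with mir-34b (permutation p = 0.896, adjusted p = 0.896) and r = 0.26 with mir-34c (permutation p = 0.346, adjusted p = 0.519). Spearman's rho was 0.10 (permutation p = 0.715, adjusted p = 0.715) and 0.20 (permutation p = 0.465, adjusted p = 0.698). Without the 2 animals farthest from the median of the first row of each pair, r was 0.49 and -0.28, so both changed sign.

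The rows most like each member, with mir-34b and mir-34c themselves left out, were sought by Pearson correlation of log2(CPM + 0.5) over the 15 animals. For mir-34b these were mir-3058 (r = 0.89), mir-296 (0.84), mir-99b (0.80), mir-423 (0.79) and mir-31 (0.79). For mir-34c these were mir-3078 (0.87), mir-375 (0.82), mir-582 (0.79), mir-31 (0.77) and mir-5113 (0.76). Each of these values lay above the r of 0.66 between mir-34b and mir-34c. The first row of each list was near the floor, with a median of 0.40 CPM for mir-3058 and 0.55 CPM for mir-3078. Of the 5 nearest to mir-34c, 4 (mir-582, mir-31, mir-3078 and mir-375) ranked above it by their difference between rRNA-rich and other libraries, at 2.61, 1.82, 1.69 and 1.60.

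Other miRNAs tied to p53 gave few calls. Of 24 listed loci, 16 were in the fit, 6 were set aside as two-level, 1 was too low and 1 was not listed. They cover reported targets of p53 (such as mir-194-2, mir-215 and mir-145a), miRNAs whose processing p53 aids in human cells (mir-16-1 and mir-143) and miRNAs that act on p53 or its regulators (mir-125b-1, mir-25 and the mir-29 rows). Several are locus copies that can share reads. In un-injected against WT retinas 8 of 16 were higher and 8 lower, none past the threshold with edgeR, with a median log2 fold change of -0.01 beside -0.09 over all 382 rows.

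In mouse gRhO against un-injected retinas 9 of the 16 were higher and 7 lower, with a median of 0.07 beside 0.08 over all rows. Human gRHO and saline against un-injected gave medians of 0.10 and 0.03, and none of the 16 passed with edgeR in these comparisons or between the constructs. Against WT, 1 of the 16 passed with mouse gRhO, where 12 of all 382 rows did (3.14%), and 0 with Human gRHO, where 0% of all rows did. A single row is near that background. With mouse gRhO against WT, 8 of the 16 were higher and 8 lower. Among the higher was mir-145a (log2 0.40, adjusted p = 0.424, edgeR). The row that passed was mir-143, a miRNA of smooth muscle and mural cells, which was lower with mouse gRhO (log2 -1.84, adjusted p = 0.0138). Without WT animal 2 it stood at -0.42 (adjusted p = 0.786), and without the rRNA-rich libraries at -1.69 (adjusted p = 0.0825).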

How the data were processed

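Frozen retinas gave RNA by Trizol for NEXT Flex small RNA v3 libraries, per the labels' protocols. The authors deposited raw counts of reads for each miRNA locus, split by class (mature, precursor, stemloop), and a second table of counts by alignment type. The submitters' processing notes name DESeq2. The aligner, counter, annotation and genome build were not given in the sources used here. No matrix column was left unused (0 columns). The 903 mature rows summed to between 10.4% and 19.5% of the mature miRNA reads in the second table, which were used as library size.

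Counts of both eyes were summed per animal and tested with edgeR 4.0.16 in R 4.3.3 (quasi-likelihood, robust, TMM, all 5 groups in 1 fit) for the 382 rows that reached 10 counts in 3 or more animals and were not two-level. TMM factors ran from 0.73 in WT animal 2 to 1.26 in un-injected animal 3; the printed CPM do not include them. Correlations used scipy 1.17.1 with 100000 permutations, two-sided. DESeq2 1.42.0 and the other settings were alternatives. The test script was checked on simulated data. The labels do not say that libraries came from separate animals, so the spread behind each p-value may be technical in part. Named rows were the 3 members, the mir-449 rows, p53-linked rows past the threshold and, per member, the 5 nearest rows. The members and lists were chosen with earlier results of these data known. The leading title numbers of the P23H+/- groups recur in no other group, and the WT titles carry none. What these numbers mark is not stated. No comparison between groups within a shared number could be made.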

Additional observations from a re-analysis of the deposited data

Results flagged for a closer look

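Among the 7 mouse gRhO animals, animal 2 stood far above the others for mir-34a, at 92.5 CPM over both eyes, with the next at 0.86 CPM. Its right eye held 1854 reads and its left eye 4. Animal 6 of the same group stood far above the others for mir-34c, at 8.17 CPM with the next at 3.73 CPM, and its single library had 4.85% rRNA. The highest and the lowest animal were checked for 3 rows in this 1 group. For values with a normal spread, chance marks about 1 row in 20, and so more often 1 of 3 rows. The mir-34a row was already known as two-level with 1 high animal in this group, so its mark was fixed in advance.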

How the results depend on the processing

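No paired analysis was possible because the labels give the groups no shared replicate numbers; this concerns comparisons between groups, and eyes were paired within animals. Without the rRNA-rich libraries, the log2 fold change of mir-34c turned to -0.21 for un-injected against WT and to -0.33 for mouse gRhO against WT. These turned to -0.22 and -0.52 with the libraries poor in photoreceptor rows left out as well, and to -0.52 and -0.72 with rRNA share entered in the model, both settings chosen after seeing the data. With both sets of libraries left out, mir-34c stood at 0.10 for Human gRHO against mouse gRhO. DESeq2 put mir-34b past the threshold for un-injected against WT, at 2.44. The cause was not tested. The other settings (RLE size factors, all aligned reads as scale, no filter on low counts, two-level rows kept, 2 groups in the fit, single libraries as samples, the 2 libraries poor in photoreceptor rows left out) kept direction and side of the threshold for both rows where they gave a value; mir-34b was too low for the fit of Human gRHO and WT alone. With all aligned reads as scale, the median of all rows for un-injected against WT was 0.14, where it was -0.09. Leaving out 1 animal at a time gave 1.92 to 3.26 for mir-34b in un-injected against WT, past the threshold without WT animal 1. It gave -0.43 to 0.60 for mir-34b between Human and mouse gRhO, -0.93 to 0.22 for mir-34c in Human gRHO against WT and -0.075 to 0.93 for mir-34c in mouse gRhO against WT, where the sign turned. With two-level rows kept, mir-34a had adjusted p-values of 0.308 to 0.994 in the 7 comparisons. Depth limits both tested rows, with 3 to 32 reads per library for mir-34b and 7 to 64 for mir-34c.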
